A study of Mus musculus with 15 samples.

Results

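The wildtype baseline of this study consisted of 6 RNA sequencing libraries, of 15 in all, made from E12.5 mouse fetal liver cells labelled as erythroid progenitors. They were chosen by title alone, as the libraries named wildtype, and the other 9 were not used. All 6 carried the genotype WT on the strain 129S6/SvEvTac, with no treatment given. Group 1 of mice comprised 3 libraries whose molecule is labelled polyA RNA, and group 2 comprised 3 libraries labelled total RNA. How the progenitors were isolated and whether a library held 1 embryo or several are not given in the sources used here. Because the group of mice and the kind of RNA change together, they cannot be told apart in any comparison between the groups. Genes were tested between groups by their rank within each library, and a test on log2 CPM served only as an alternative setting at the end. CPM and shares of counts of the groups are given side by side as descriptions. The p values measure the spread among these libraries, which may be technical in part.

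The fetal liver is the main site of red cell production in the mid-gestation mouse. Definitive erythroid progenitors there respond to stem cell factor through Kit and to erythropoietin through Epor, switch on the GATA1 and KLF1 programme, divide rapidly, and then load iron, heme and haemoglobin before they lose their nucleus. Primitive red cells, made earlier in the yolk sac, circulate at the same stage and carry embryonic globins such as Hbb-y, Hbb-bh1 and Hba-x, while definitive cells of the mouse use mainly the adult genes Hba-a1, Hba-a2, Hbb-bs and Hbb-bt.

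Total counts lay between 51609032 and 58513669 in group 1 and between 32962599 and 44827821 in group 2, with 17179 to 18463 genes holding a count per library. Spearman correlations of counts across genes, which are not independent replicates, were 0.991 to 0.994 within group 1, 0.987 to 0.994 within group 2 and 0.921 to 0.931 between groups. Gene levels varied between libraries with a biological coefficient of 16.9% (group 1) and 18.0% (group 2). Levels below are CPM, counts scaled to library size with TMM factors within a group, given in the order of replicates 1, 2 and 3. Levels of different genes are compared as CPM per kilobase of exon, and ranks count from 1 at the highest count of a library.

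Stretches of DNA that the results below turn on are shown first. The promoters of the adult Hbb-bs and embryonic Hbb-y globin genes are shown as examples only and do not represent the adult and embryonic sets. That of Alas2, which makes the first enzyme of heme synthesis in red cells, is an example of late genes that varied in group 2. Each runs from 250 bases before to 50 bases after the annotated start, 5′ to 3′ along the gene, from the RefSeq tables of build GRCm38.p6, whose strain is not the one sequenced. Capitals mark matches, on either strand, to 4 short motifs. The GATA motif was searched as AGATAA and, as an equal alternative, as TGATAA. The CACCC motif, bound by KLF factors, was searched as CCACACCC and as CCCCACCC. The box bound by NF-Y was searched as CCAAT. The box of core promoters was searched with the letters TATAAA.
Hbb-bs promoter, chr7:103827879-103828178, strand -: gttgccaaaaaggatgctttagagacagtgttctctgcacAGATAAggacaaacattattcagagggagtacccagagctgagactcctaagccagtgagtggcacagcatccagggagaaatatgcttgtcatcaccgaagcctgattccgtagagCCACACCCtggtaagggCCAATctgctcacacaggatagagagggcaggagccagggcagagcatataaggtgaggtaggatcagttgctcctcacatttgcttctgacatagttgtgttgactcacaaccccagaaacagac
Hbb-y promoter, chr7:103853158-103853457, strand -: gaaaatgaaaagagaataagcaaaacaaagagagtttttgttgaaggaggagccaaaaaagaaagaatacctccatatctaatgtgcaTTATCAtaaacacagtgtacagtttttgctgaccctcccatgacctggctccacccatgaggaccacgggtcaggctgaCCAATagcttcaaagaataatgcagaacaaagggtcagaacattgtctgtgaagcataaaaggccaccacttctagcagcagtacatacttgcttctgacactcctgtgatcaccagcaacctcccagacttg
Alas2 promoter, chrX:150547167-150547466, strand +: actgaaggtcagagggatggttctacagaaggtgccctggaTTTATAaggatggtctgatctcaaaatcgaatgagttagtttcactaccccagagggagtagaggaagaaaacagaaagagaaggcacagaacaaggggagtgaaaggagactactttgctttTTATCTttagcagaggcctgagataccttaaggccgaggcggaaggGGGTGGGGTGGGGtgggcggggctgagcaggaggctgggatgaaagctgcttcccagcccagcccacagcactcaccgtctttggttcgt
Such a GATA motif is in 18.6% of the 32851 promoters of the table, a CACCC motif in 13.0%, CCAAT in 37.4% and TATAAA in 13.6%. The CACCC letters were found in the Hbb-bs and Alas2 windows and not, in this spelling, in that of Hbb-y. They were also absent from the windows of the other adult genes Hba-a1, Hba-a2 and Hbb-bt and of embryonic Hba-x. The Hbb-bt window had no GATA match either. The letters therefore do not separate adult from embryonic globin genes. These matches are descriptions of sequence and not evidence of binding.

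The second set is the 3′ end of replication-dependent histone transcripts, a class with wide differences in rank between the libraries of polyA and of total RNA. Capitals mark the stem-loop (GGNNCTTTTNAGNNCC), at which these transcripts are known to be cut instead of receiving a polyA tail, with up to 5 flanking bases read from GENCODE M21 transcripts.
Hist1h4h: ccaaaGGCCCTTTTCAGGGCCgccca
Hist1h3b: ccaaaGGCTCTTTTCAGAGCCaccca
Hist2h2aa1: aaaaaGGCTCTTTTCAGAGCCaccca
Hist1h2ap: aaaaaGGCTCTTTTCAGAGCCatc
Within the last 200 bases of an annotated transcript, 28 of 21897 protein coding genes (0.128%) held the 16-letter motif, searched on the transcript's own strand. Of those 28 genes, 25 were among the 67 tested histone genes. The other 3 were tested, and 0 were called higher in group 2 without overlap and by at least 10 percentile points. Of the tested histone genes 65 were, beside 9.94% of all tested genes, and 24 of these 65 held the motif. The filter on low values set many of their directions, as described below, and a link of motif and shift was not tested. No match says only that these letters are not in the annotated end.

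All 6 marker genes given for these cells were detected in every library, and 5 of them exceeded 100 CPM in every library. Klf1 (chr8:84901928-84905291, + strand), an activator of globin and red cell genes, stood at 573, 586 and 505 CPM in group 1 and 816, 860 and 781 CPM in group 2. Gata1 (chrX:7959260-7978071, - strand), the leading erythroid transcription factor, stood at 209, 212 and 205 CPM in group 1 and 373, 361 and 344 CPM in group 2. Both placed among the first 1000 genes of every library. Tfrc (chr16:32608920-32632794, + strand), the transferrin receptor for iron uptake, held 824, 890 and 854 CPM in group 1 and 746, 826 and 997 CPM in group 2. Its rank ran from 91 to 172, within the first 200 genes throughout.

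Receptor genes followed. Epor (chr9:21958897-21963506, - strand), the erythropoietin receptor, stood at 229, 227 and 222 CPM in group 1 and 281, 303 and 282 CPM in group 2. Kit (chr5:75574916-75656722, + strand), the stem cell factor receptor of early progenitors, stood at 150, 162 and 171 CPM in group 1 and 197, 177 and 154 CPM in group 2, with ranks from 1098 to 1500. Kit was thus detected together with the later markers in each library. Alas2 (chrX:150547375-150570638, + strand) was the marker with the widest spread. It held 50.8, 56.1 and 77.8 CPM in group 1 and 32.7, 63.4 and 101.4 CPM in group 2, and its rank ran from 5572 in replicate 1 to 2424 in replicate 3 of group 2. Per kilobase, mean levels in group 1 fell in the order Klf1 (363), Tfrc (138), Epor (114), Gata1 (85.5), Alas2 (25.6) and Kit (18.1 CPM per kb). In group 2 the order was Klf1 (535), Gata1 (147), Epor (145), Tfrc (138), Alas2 (27.4) and Kit (19.8 CPM per kb). Gata1, Epor and Tfrc in group 2 lay close to one another, and Alas2 overlapped Kit there.

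Between groups, the rank of each gene was tested with limma on normal scores of the within-library ranks, with Benjamini-Hochberg adjustment over 11754 genes with at least 1 CPM in at least 3 libraries. At an adjusted p under 0.05, 7117 genes (60.5%) differed in rank, so a call by itself says little about any gene. Of the 6 markers, 3 passed, all with a higher rank in group 2: Gata1 (limma adjusted p = 4.2e-06), Klf1 (9.8e-05) and Epor (0.0057). Their shifts were 3.88, 0.916 and 1.47 percentile points among the tested genes. The ranks of Kit (adjusted p = 0.55), Tfrc (0.66) and Alas2 (0.99) did not pass, and Tfrc passed only without replicate 3 of group 2 (0.0418).

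Erythroid transcription factors were among the better expressed genes: all 18 of the list reached 10 CPM in every library and 14 reached 100 CPM. Zfpm1, the GATA1 cofactor FOG1, held 617, 652 and 712 CPM in group 1 and 1214, 1353 and 1211 CPM in group 2. Tal1, which joins GATA1 in a DNA-bound complex, had 410, 406 and 378 CPM in group 1 and 577, 615 and 607 CPM in group 2. Their ranks did not overlap between groups and were higher in group 2. In all, 15 of the 18 ranked higher in group 2, beside 29.3% of all tested genes, and 1 ranked higher in group 1, beside 31.3%. That 1 was Myb, a factor of early proliferating progenitors, with 335, 358 and 443 CPM in group 1 and 364, 314 and 268 CPM in group 2. The groups overlapped, and the limma adjusted p of 0.040 became 0.0636 and 0.137 without replicates 2 and 3 of group 1, and 0.0895 and 0.126 without replicates 2 and 3 of group 2. The median shift of the list was 1.63 percentile points, against -0.217 over all tested genes. The largest shifts were those of Sox6, a repressor of embryonic globin (16.4 points), E2f2, a cell cycle regulator of erythroblasts (11.7 points), and Foxo3, a maturation factor (10.2 points).

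Signalling downstream of the 2 receptors was represented at moderate levels, with 14 of 18 listed genes at 10 CPM or more in all 6 libraries. Jak2, the kinase bound to the erythropoietin receptor, held 140, 143 and 150 CPM in group 1 and 110, 122 and 148 CPM in group 2. Stat5b, its transcriptional effector, held 128, 140 and 153 CPM in group 1 and 238, 221 and 203 CPM in group 2. The feedback inhibitors Cish, Socs3 and Socs1 were low. Cish ranged from 5.14 to 10.6 CPM, Socs3 from 0.991 to 2.12 CPM and Socs1 from 0.120 to 0.440 CPM over the 6 libraries. The inhibitors Socs2 and Sh2b3 of the same list are not described here, so nothing is said of the class as a whole. By rank, 8 of 17 tested members were higher in group 2, beside 29.3% of all tested genes, and 2, Grb2 and Bmi1, in group 1, beside 31.3%.

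Markers of other blood and liver cells were mostly low, and the exception was a set of granule genes in 2 libraries of group 1. No lymphoid marker of 10 reached 1 CPM in any library. Macrophage markers summed to between 0.922 and 7.35 CPM over 12 genes, with Timd4 and Cd5l at 0 in all 6 libraries, and stellate or mesenchymal markers to between 1.87 and 4.24 CPM over 10. Of the endothelial list, 8 of 10 stayed below 1 CPM everywhere. Egfl7, which blood progenitors also express, made up nearly all of that list's sum, at 52.3, 46.3 and 53.4 CPM in group 1 and 66.9, 50.9 and 44.5 CPM in group 2. Among megakaryocyte genes, 5 of 10 reached 1 CPM in all libraries, led by Itga2b and Vwf, and none reached 10 CPM in all. Early stem and progenitor genes were likewise low: Mecom and Ly6a were at 0 in all 6 libraries, and only Runx1, Mllt3 and Lmo4, of 19, reached 10 CPM in each.

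**Figure D1:**
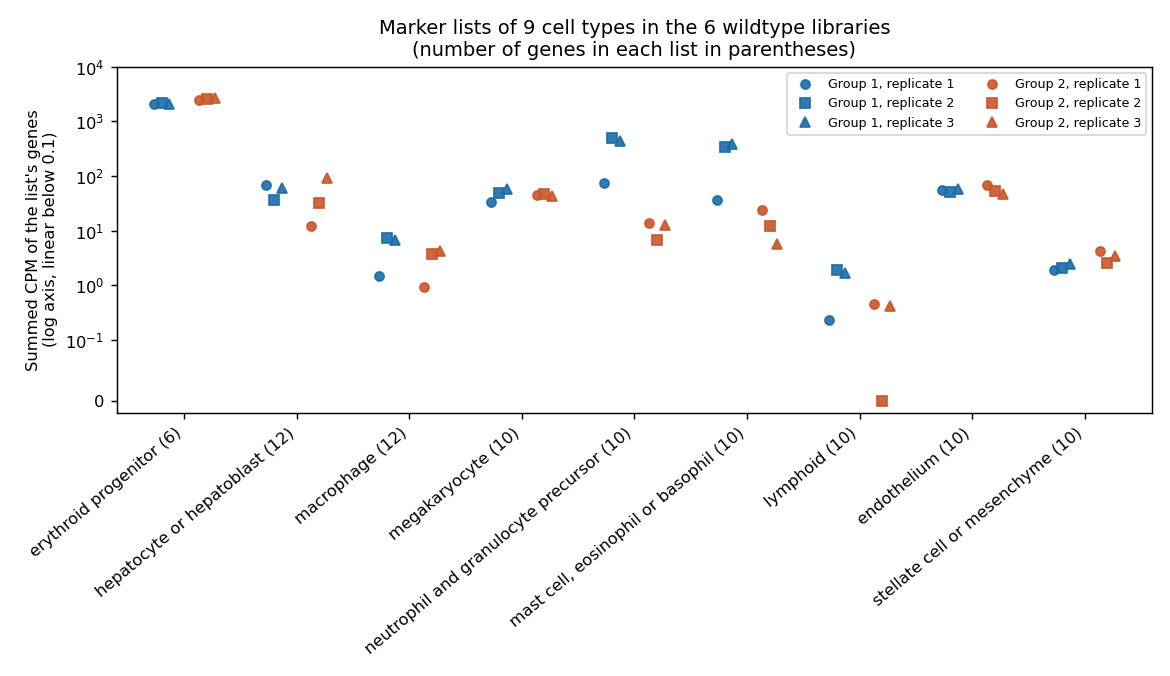
Summed CPM of marker lists (y axis, logarithmic, linear below 0.1) for 9 cell types (x axis) in each library, blue for group 1 and orange for group 2, with 1 point per library. The erythroid list lies between 2035 and 2660 CPM, and the neutrophil and eosinophil lists are high in replicates 2 and 3 of group 1.

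Neutrophil and granulocyte precursor markers summed to 73.9, 503 and 436 CPM in group 1 and 13.8, 6.59 and 12.6 CPM in group 2. Mpo, the myeloperoxidase of granulocyte precursors, held 26.3, 159 and 137 CPM in group 1 and 8.09, 5.45 and 10.1 CPM in group 2. S100a9, a calcium-binding protein of neutrophils, held 17.0, 106 and 104 CPM in group 1 and 0.584, 0 and 0.464 CPM in group 2. Replicates 2 and 3 were the high libraries of group 1 for both. Of the 9 tested genes of this list, 8 were under 1 CPM in at least 1 library of group 2 and passed the filter on low values only through group 1. The filter therefore set their direction. All 9 shifted toward group 1, beside 10.7% of all tested genes, and that count is a description only. The call for Mpo (limma adjusted p = 0.045) held without replicate 1 of group 1, but the adjusted p was 0.101 to 0.123 when any other library was left out and 0.0942 with no filter.

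Eosinophil granule genes followed the same libraries. Prg2, the eosinophil major basic protein, held 20.9, 223 and 246 CPM in group 1 and 12.2, 7.16 and 3.27 CPM in group 2. Epx, the eosinophil peroxidase, held 10.1, 73.9 and 79.0 CPM in group 1 and 9.13, 4.11 and 2.01 CPM in group 2. Neither rank passed between groups (limma adjusted p = 0.073 and 0.078). Both passed without replicate 1 of group 1 (0.000543 and 0.0119), their lowest library in that group. With any other library left out, neither passed, at a limma adjusted p of 0.1255 to 0.1890 for Prg2 and 0.1002 to 0.2004 for Epx. Ear6 and Prg3 passed the filter only through group 1, which set their direction, so no test is given for them. Ear6, an eosinophil-associated ribonuclease, held 2.86, 29.0 and 35.5 CPM in group 1 and 0.553, 0.399 and 0.0884 CPM in group 2. Prg3, a homologue of Prg2, held 1.89, 11.5 and 17.2 CPM in group 1 and 1.66, 0.342 and 0.0663 CPM in group 2. The mast cell and basophil genes Mcpt8 and Fcer1a were at 0 in all 6 libraries. In RNA from many cells, fewer cells of a type and less RNA per cell cannot be told apart.

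Hepatocyte genes were present at a low level that varied most in group 2. The 12 markers summed to 68.8, 36.6 and 60.7 CPM in group 1 and 12.3, 32.5 and 89.7 CPM in group 2. Alb, serum albumin, held 16.4, 9.35 and 13.3 CPM in group 1 and 2.49, 8.33 and 23.2 CPM in group 2. Afp, alpha-fetoprotein, held 32.0, 15.9 and 28.6 CPM in group 1 and 3.66, 11.2 and 31.4 CPM in group 2. Replicate 3 of group 2 was the highest library of its group for both and replicate 1 the lowest. By limma, 0 of the 7 tested hepatocyte genes passed between groups after adjustment, beside 60.5% of all tested genes, and 1 had an unadjusted p under 0.05, as had 7582 of the 11754 genes tested.

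The embryonic globin genes varied 8.85-fold to 17.5-fold within group 1, and the adult genes by less. Hbb-bs, the main adult beta gene, held 1554, 1704 and 1816 CPM in group 1 and 2665, 4131 and 5194 CPM in group 2, and was among the first 100 genes of every library. Hba-a1, adult alpha globin, held 1049, 1161 and 1749 CPM in group 1 and 1080, 2252 and 3070 CPM in group 2. Its near-identical copy Hba-a2 followed it, so the split between both copies is uncertain, as is that between Hbb-bs and Hbb-bt. Hbb-bt, the second adult beta gene, held 108, 90.4 and 112 CPM in group 1 and 52.9, 84.7 and 145 CPM in group 2. Replicate 1 of group 2 was the lowest of its group for all 4 adult genes. Haemoglobin genes together took 0.374%, 0.442% and 0.689% of counts in group 1 and 0.494%, 0.876% and 1.14% in group 2.

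Of the embryonic genes, Hbb-y held 71.9, 313 and 1261 CPM in group 1 and 140, 228 and 188 CPM in group 2. Hba-x, embryonic alpha globin, held 23.1, 83.4 and 402 CPM in group 1 and 108, 177 and 131 CPM in group 2. Hbb-bh1, a second embryonic beta gene, held 17.4, 39.3 and 154 CPM in group 1 and 17.3, 23.4 and 17.7 CPM in group 2. Replicate 3 of group 1 was the highest and replicate 1 the lowest of that group for all 3 genes, while the adult genes moved by at most 1.67-fold there. Hspa1a, Hspa1b, mt-Rnr1 and Lars2 were also highest of group 1 in replicate 3, and their part in the result was not tested. Hbb-y and Hbb-bh1 made up 5.10%, 16.4% and 42.3% of beta-type globin counts in group 1 and 5.48%, 5.63% and 3.71% in group 2. The mean share of group 1, 21.3% ± 19.1 (SD, n = 3), was 10.8% without replicate 3. In group 2 it was 4.94% ± 1.07 (SD, n = 3). Of 8 globin genes tested, 1, Hbb-bs, differed in rank between groups (limma adjusted p = 0.014, higher in group 2), below the 60.5% of all tested genes.

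**Figure D2:**
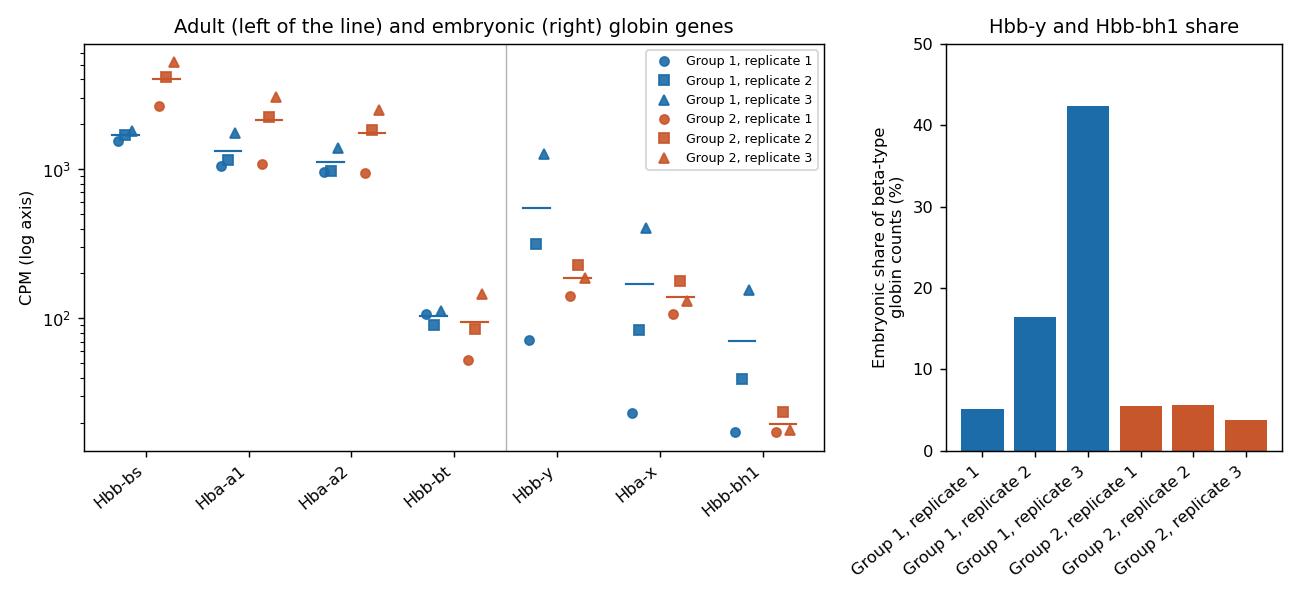
Left, CPM (logarithmic y axis) of 4 adult and 3 embryonic globin genes, with 1 point per library (blue, group 1; orange, group 2) and bars at the mean of 3. Right, percent of beta-type globin counts from Hbb-y and Hbb-bh1 in each library, from 3.71% to 42.3%.

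Heme synthesis genes were unevenly expressed along the pathway, with Alad and Cpox well above Alas2 and Fech. Per kilobase in group 1, Alad, the second enzyme, had 252 ± 1.74 CPM per kb and Cpox, which makes protoporphyrinogen, 241 ± 18.4 CPM per kb (SD, n = 3). Alas2 had 25.6 ± 5.96 and Fech, which inserts the iron, 30.2 ± 0.957 CPM per kb. Alas1, the housekeeping form of the first enzyme, was the lowest at 4.47 ± 1.16 CPM per kb. Group 2 gave 463 ± 4.52 CPM per kb for Alad, 330 ± 27.9 for Cpox, 27.4 ± 14.3 for Alas2, 32.0 ± 4.08 for Fech and 2.77 ± 0.793 for Alas1. Alad and Cpox were the highest of the 9 enzymes in both groups, and Alas1 the lowest. Cpox ranked between 19 and 56 by count in all libraries. By rank between groups, 3 of 15 listed genes were higher in group 2 and 4 in group 1, both shares below those of all tested genes (29.3% and 31.3%). Those higher in group 2 were Alad (limma adjusted p = 5.7e-07), Cpox (2.4e-05) and the mitochondrial transporter Abcb10 (9.9e-05), and Tmem14c (0.00019) had the lowest adjusted p of those higher in group 1.

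**Figure D3:**
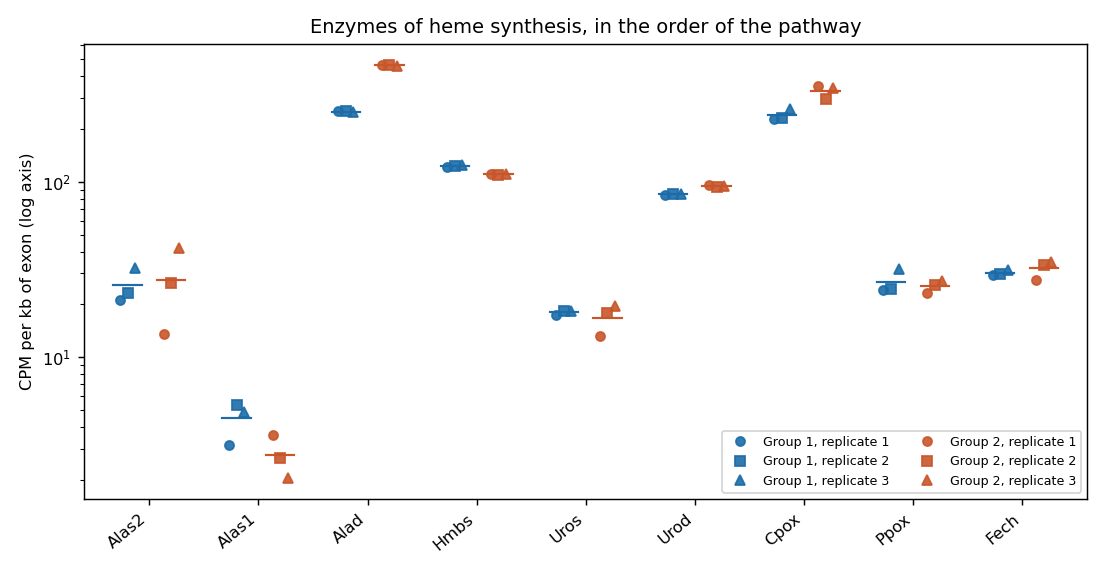
CPM per kb of exon (logarithmic y axis) of 9 heme synthesis enzymes in pathway order (x axis), with 1 point per library (blue, group 1; orange, group 2) and bars at the mean of 3. Alad and Cpox lie above 200 CPM per kb in every library and Alas2 spreads most in group 2.

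Most iron handling genes were expressed in every library, with 14 of 15 at 10 CPM or more in all libraries and Hfe, a regulator of iron sensing, at 0.114 CPM or less. Ftl1, the ferritin light chain, held 1232, 1145 and 1105 CPM in group 1 and 1048, 1170 and 1161 CPM in group 2. Fth1, the ferritin heavy chain, held 1083, 1004 and 1147 CPM in group 1 and 354, 338 and 399 CPM in group 2. The light chain kept its rank (75 to 100) across all libraries, while the heavy chain ranked 83 to 91 in group 1 and 426 to 540 in group 2 (limma adjusted p = 2.6e-08). Steap3, the endosomal iron reductase, ranked higher in group 2 (2.2e-05). In all, 3 of 14 tested iron genes were higher in group 2 and 2 in group 1, below the 29.3% and 31.3% of all tested genes.

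Genes of the red cell membrane and late maturation were well represented. All 28 genes of that list exceeded 1 CPM and 15 exceeded 100 CPM in every library. Sptb, the beta chain of spectrin, held 666, 750.5 and 854 CPM in group 1 and 1397, 1564 and 1748 CPM in group 2. Slc4a1, the anion exchanger band 3, held 285, 353 and 450 CPM in group 1 and 321, 615 and 898 CPM in group 2. In group 2 Slc4a1 was lowest in replicate 1 and highest in replicate 3, as were Alas2, Hba-a1 and Hbb-bs. The hepatocyte genes Alb and Afp took the same order there, and their part in the result was not tested. Of the 28 genes, 9 ranked higher in group 2, near the 29.3% of all tested genes, and 4 in group 1, below the 31.3% of all. Among the 9 were Ank1, the ankyrin that anchors spectrin (limma adjusted p = 2.8e-05), and Tns1 (9.8e-06).

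Proliferation genes were prominent: 31 of 34 cell cycle genes exceeded 10 CPM and 21 exceeded 100 CPM in every library. Mki67, a marker of cycling cells, held 1235, 1301 and 1330 CPM in group 1 and 1397, 1760 and 1772 CPM in group 2, at ranks 28 to 75. Cyclin D3 (Ccnd3) and Ccnd2 were the D cyclins in use, with Ccnd3 at 220, 252 and 276 CPM in group 1 and 275, 340 and 372 CPM in group 2, while Ccnd1 ranged from 1.05 to 2.25 CPM. The inhibitors Cdkn1a, from 1.59 to 3.39 CPM, and Cdkn1c, from 1.46 to 3.29 CPM, were low in all 6 libraries. The inhibitors Cdkn1b and Cdkn2c were not, and stood among the 31 genes above 10 CPM throughout. Between groups, 12 of 34 were higher in rank in group 2 and 12 in group 1, close to the 29.3% and 31.3% of all tested genes. Cdk6, a cyclin D partner, was called higher in group 2 (limma adjusted p = 6.5e-07) and Cdk1, the mitotic kinase, higher in group 1 (1.6e-06).

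Lipid synthesis genes, the subject of the study's title, were expressed in the wildtype cells: 23 of 24 exceeded 10 CPM in all libraries. Scd2, a desaturase that makes monounsaturated fatty acids, was the highest per kilobase, with 159 ± 5.79 CPM per kb in group 1 and 172 ± 8.41 in group 2 (SD, n = 3). Its rank was 98 to 126 in all libraries. The paralog Scd1 had 8.73 ± 1.76 and 8.23 ± 2.23 CPM per kb in groups 1 and 2. Fasn, fatty acid synthase, held 246, 257 and 223 CPM in group 1 and 748, 734 and 614 CPM in group 2, and its rank was higher in group 2 (limma adjusted p = 1.1e-07). In rank, 9 of 24 were higher in group 2, beside 29.3% of all tested genes, and 4 in group 1, beside 31.3%.

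Of 12 tested fetal growth regulators, 3 ranked higher in group 2 and 2 in group 1, below the 29.3% and 31.3% of all tested genes. Lin28b, a keeper of fetal blood cell traits, held 124, 114 and 116 CPM in group 1 and 103, 115 and 122 CPM in group 2, while its relative Lin28a stayed at or below 1.34 CPM. Igf2bp1, an RNA-binding protein of fetal cells, held 144, 142 and 151 CPM in group 1 and 450, 476 and 425 CPM in group 2 (rank higher in group 2, limma adjusted p = 1.3e-08). Of the imprinted genes, H19 held 428, 414 and 472 CPM in group 1 and 361, 244 and 408 CPM in group 2, while Igf2, made by liver cells, ranged from 3.01 to 15.6 CPM.

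The most abundant transcripts differed between the groups. Per kilobase, the 20 leading genes of group 1 held 7 ribosomal protein genes, 5 genes of the mitochondrial genome and 3 globin genes, with mt-Co1 first at 5932 ± 492 CPM per kb and Eef1a1, the elongation factor that brings tRNA to the ribosome, second at 3735 ± 95.3 (SD, n = 3). Those of group 2 held 8 replication-dependent histone genes and 4 small structured RNAs, which took the first 4 places, followed by Hbb-bs at 5204 ± 1653 CPM per kb. The 2 sets shared 8 genes: Eef1a1, mt-Co1, Ptma, Rplp1, Rps2, Hbb-bs, Hba-a1 and Hba-a2. The passed-over predicted genes and pseudogenes among them numbered 3 in group 1 and 1 in group 2. A further 260 genes had no annotated length and could not enter the ranking per kilobase. One of them, an entry listed as CT010467.2 (ENSMUSG00000118642), held 3.85, 3.89 and 5.96 CPM in group 1 and 13219, 6107 and 6366 CPM in group 2, the highest mean CPM of any gene in group 2 (limma adjusted p = 2.0e-09). That place rested on replicate 1, since Eef1a1 was higher in replicates 2 and 3 of group 2, at 7649 and 7858 CPM. An entry annotated as ribosomal RNA, CT010467.1, held 6049, 6005 and 8422 CPM in group 1 and 1537, 5362 and 523 CPM in group 2.

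Replication-dependent histone genes took 0.0578%, 0.0370% and 0.0573% of counts in group 1 and 3.98%, 3.77% and 3.46% in group 2. Of 67 tested, 42 were under 1 CPM in at least 1 library of group 1 and passed the filter on low values only through group 2, which set their direction. In all, 66 ranked higher in group 2, beside 29.3% of all tested genes, and that count is a description only. Hist1h4h, whose stem-loop is printed above, held 0.447, 0.383 and 1.33 CPM in group 1 and 1392, 1197 and 1165 CPM in group 2. Hist1h3b held 0.622, 0.747 and 1.13 CPM in group 1 and 1265, 1199 and 1133 CPM in group 2. Hist1h2ap held 371, 226 and 339 CPM in group 1 and 975, 965 and 831 CPM in group 2, and its annotated end carries the same stem-loop as Hist2h2aa1. These genes are near-identical copies, so counts of single members are uncertain.

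Of 5 variant histone genes, chosen after their values were seen and so described without a test, H2afz, H2afv, H3f3a and H3f3b had the higher mean percentile in group 1 and H2afx in group 2. H2afz held 705, 681 and 660 CPM in group 1 and 539, 486 and 463 CPM in group 2, and H3f3b 738, 696 and 710 CPM in group 1 and 448, 399 and 387 CPM in group 2. H2afx, the variant phosphorylated at DNA breaks, held 239, 220 and 274 CPM in group 1 and 1815, 1567 and 1239 CPM in group 2.

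Small structured RNAs took at most 0.00166% of counts in group 1 and 1.48% to 1.51% in group 2. Of 109 with a count, 13 passed the filter on low values, 10 of them under 1 CPM in at least 1 library of group 1, so the filter set most directions. Of these 13, 12 ranked higher in group 2, beside 29.3% of all tested genes, as a description only. Rpph1, the RNA of ribonuclease P, held 0.369, 0.555 and 0.667 CPM in group 1 and 2911, 3317 and 3846 CPM in group 2. Rn7sk, which holds back the elongation factor P-TEFb, held 1.56, 1.38 and 4.38 CPM in group 1 and 2527, 2469 and 1752 CPM in group 2. Among long noncoding RNAs, the nuclear RNA Malat1 held 139, 124 and 204 CPM in group 1 and 1324, 1144 and 1181 CPM in group 2. Kcnq1ot1, the antisense RNA of an imprinted locus, held 29.8, 32.3 and 22.2 CPM in group 1 and 206, 391 and 307 CPM in group 2, and its reads cannot be told apart from those of the gene it overlaps if strand was not used. Both ranked higher in group 2 (limma adjusted p = 4.4e-05 and 3.4e-05), while the snoRNA host genes Gas5, Snhg1 and Snhg12 ranked higher in group 1. Of 11 tested long noncoding RNAs of the list, 3 ranked higher in group 2, beside 29.3% of all tested genes, and 6 in group 1, beside 31.3%.

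**Figure D4:**
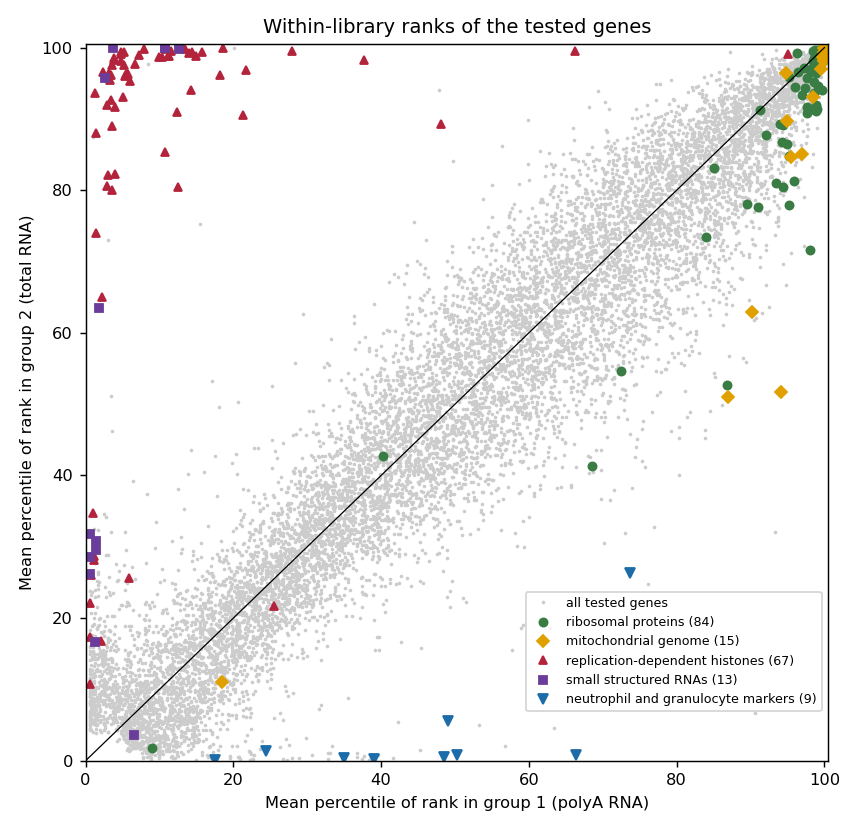
Mean percentile of rank among the 11754 tested genes in group 1 (x axis) and group 2 (y axis), with 1 point per gene, classes coloured and the line of equality in black. Most replication-dependent histones lie at the upper left, small structured RNAs along the left edge from bottom to top, most granulocyte markers along the bottom, and ribosomal proteins near the upper right corner.

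Genes with higher rank in group 1 included the mitochondrial and ribosomal sets. Mitochondrial genes took 2.81%, 2.55% and 2.36% of counts in group 1 and 0.663%, 0.911% and 0.777% in group 2, and 14 of 15 tested ranked higher in group 1, beside 31.3% of all tested genes. Of 84 ribosomal protein genes, 63 ranked higher in group 1, beside 31.3% of all tested genes, and 6 in group 2, beside 29.3%, with a median shift of -1.20 percentile points in group 2 relative to group 1. Rpl5, the gene altered in the study's mutants, held 660, 666 and 743 CPM in group 1 and 315, 299 and 372 CPM in group 2. Rpl39 had the widest gap of the ribosomal protein genes, with a mean percentile of 86.8 in group 1 and 52.7 in group 2. Outside these classes, Hmgn5, a nucleosome-binding protein, held 252, 214 and 261 CPM in group 1 and between 9.18 and 12.9 CPM in group 2 (limma adjusted p = 1.4e-10). Nsrp1, a splicing protein, held 91.6, 84.6 and 91.4 CPM in group 1 and between 10.9 and 12.7 CPM in group 2 (1.8e-09).

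Over all genes, 2426 (20.6%) were called, did not overlap and moved by at least 10 percentile points, 1168 (9.94%) higher in group 2 and 1258 (10.7%) higher in group 1. Among protein coding genes, the median GC content of the longest transcript was 43.9% for the 1143 higher in group 1 and 54.9% for the 921 higher in group 2, against 49.5% for all 10424 tested. Median lengths of that transcript were 2667 and 4605 bases, against 3425 for all tested. Both properties therefore moved with the rank difference, and their part in it was not tested. Across the protein coding genes, which are not independent, the percentile difference had a Spearman rho of 0.51 with GC content and 0.26 with length.

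Within groups, most genes varied little: among genes with a mean of at least 20 CPM, the median fold between the highest and lowest library was 1.10 in group 1 (6781 genes) and 1.16 in group 2 (6653 genes). Over 2-fold were 40 genes (0.590%) in group 1 and 36 (0.541%) in group 2. Of the 40, replicate 3 was the highest library for 24 and replicate 1 the lowest for 27, and the count was 14 without replicate 1 and 23 without replicate 3. Of the 36, replicate 3 was the highest for 19 and replicate 1 the lowest for 19, and the count was 7 without replicate 1 and 16 without replicate 3. The inducible Hsp70 gene Hspa1a had the widest spread in group 1 and the widest after Xist in group 2. Hspa1a held 0.467, 0.919 and 211 CPM in group 1 and 60.8, 5.22 and 4.002 CPM in group 2, and its near-identical neighbour Hspa1b held 3.07, 5.21 and 274 CPM in group 1 and 111, 36.3 and 30.2 CPM in group 2. Replicate 3 of group 1 and replicate 1 of group 2 were the high libraries for both.

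**Figure D5:**
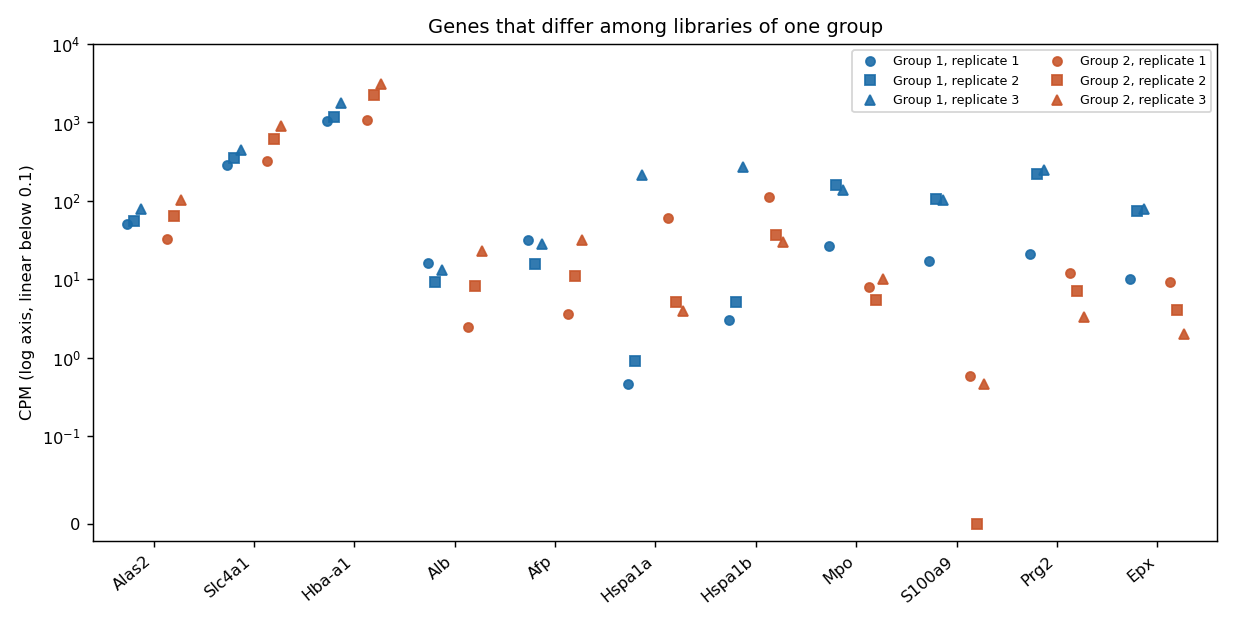
CPM (y axis, logarithmic, linear below 0.1) of late erythroid (Alas2 to Hba-a1), hepatocyte (Alb, Afp), heat shock (Hspa1a, Hspa1b) and granule genes (Mpo to Epx), with 1 point per library (blue, group 1; orange, group 2). Hspa1a ranges from 0.467 to 211 CPM within group 1.

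Sex-linked transcripts differed among the libraries as well. Xist, the RNA that silences an X chromosome in females, held 528, 861 and 2.50 CPM in group 1 and 1012, 17.7 and 1399 CPM in group 2. Ddx3y, from the Y chromosome, held 49.5, 29.8 and 88.0 CPM in group 1 and 0, 36.2 and 0 CPM in group 2. Replicates 1 and 2 of group 1 thus held both kinds of transcript, replicates 1 and 3 of group 2 held Xist and no Ddx3y count, and the remaining libraries held more Ddx3y than Xist. Whether embryos of both sexes were pooled is not given in the sources used here. Xist and Ddx3y stand among the genes over 2-fold apart in group 1.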

How the data were processed

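RNA of 6 wildtype libraries was extracted with the RNeasy Micro kit and read as 151 bp paired ends, per the labels' protocols. The deposited values are expected counts per gene, whole numbers as deposited, not normalised. Per the submitters' processing notes, cutadapt 2.3, FastQC 0.11.8, STAR 2.7.8a, RSEM 1.3.3, MultiQC 1.7 and build GRCm38 were used. Neither the gene annotation nor any strand setting is given in the sources used here. Of 55487 genes, 55227 (99.5%) were matched to GENCODE M21, used for names, coordinates and lengths. The 5 reporter rows, with 3 counts in all 6 libraries, were left out.

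CPM were computed with TMM factors of edgeR 4.0.16 within each group, and per-length levels with the union of exons. Ranks were tested between groups with limma 3.58.1 (R 4.3.3, trend and robust moderation, two-sided). The step was run on simulated data in which far fewer genes moved than differ here. That check therefore does not cover shifts as wide as those between these groups. DESeq2 1.42.0 gave alternative size factors. Replicates differed by more than sampling noise in every pair (chi-square per degree of freedom 22.0 to 66.8).

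Named genes are the 20 highest per length and 10 highest by CPM of each group, members of the lists a result turns on, the 10 largest rank shifts in each direction, and the 10 widest spreads within a group at a mean of at least 20 CPM. Predicted genes and pseudogenes were passed over, and not every gene so chosen is described. The members, lists and rules were chosen with earlier results of these data known. Ahsp and Norad were not analysed here. 1 gene of the red cell membrane and late maturation list is not reported here by name.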

Additional observations from a re-analysis of the deposited data

How the results depend on the processing

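The number of genes differing in rank between groups was 7117, and 6156 to 7888 under other filters, scales, gene sets and moderation. It was 6117 to 7419 when 1 library was left out, and 7059 with a replicate block. Of 223 tested list members, 6 lost a call and 12 gained one under that block. Same-numbered libraries of the groups correlated at -0.0478, -0.0312 and -0.0716 in their deviations from the group mean. Such deviations cancel out within a group, which constrains these values, so they cannot decide whether same-numbered libraries were paired. The count of larger, non-overlapping shifts was 2341 to 2586 when 1 library was left out. The 15 erythroid factors higher in group 2 numbered the same without any 1 library. For 8 of the 9 tested neutrophil markers and 10 of the 13 tested structured RNAs, the filter on low values had set the direction. The counts of both that follow are therefore descriptions only and do not measure stability. Neutrophil markers called higher in group 1 numbered 9, 7 to 9 without 1 library and 5 with a minimum of 5 CPM, which tests fewer genes. With no filter they numbered 7: S100a9 (limma adjusted p = 0.0656), Ngp (0.0808) and Mpo (0.0942) were not called, and Ctsg, which the filter had left untested, was. Structured RNAs called higher in group 2 numbered 12, and 23 without a filter, which tests more. Of the 20 leading genes per kilobase, 13 in group 1 and 11 in group 2 stayed with no length scaling. The median percentile of the 6 markers was 93.4 and 95.7 in groups 1 and 2 among protein coding genes, and 92.1 and 95.1 among genes of at least 1 CPM. Genes over 2-fold apart numbered 14 to 33 in group 1 and 7 to 28 in group 2 without 1 library. The leave-outs of globin shares and of genes over 2-fold apart were added after seeing the data. The cause of each move was not tested.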
